A study of Mus musculus with 6 samples.

Results

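The genes described here are 9 regulators and receptors of the periocular mesenchyme and of its main source, the neural crest: Foxc1, Foxc2, Foxd3, Twist1, Prrx1, Pdgfra, Pdgfrb, Lmx1b and Sox10. They were taken by name, as every probe set that the platform annotation assigns to 1 of these symbols, which gave 21 of 45037 probe sets and 9 of 18193 genes. RNA was profiled from GFP-positive cells sorted at embryonic day 12 from 3 Pax6 mutant and 3 control pools of about 1800000 cells, with 1 Affymetrix array per pool. The mutant cells came from Pax6 loxP/loxP;α-Cre embryos (labelled Pax6 flox alpha-cre) and the control cells from Pax6 +/+;α-Cre embryos (labelled alpha-cre), both on an ICR background. Both groups therefore carried the α-Cre transgene, where Cre and GFP are expressed together under the P0 promoter of Pax6 and its enhancer α, active in the peripheral retina, and the sort took cells in which the transgene was active. The series design calls the pools biological repeats, and neither it nor the labels say how many embryos or litters each pool held.

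The periocular mesenchyme surrounds the optic cup and is built mostly by cranial neural crest cells, with a contribution from head mesoderm. It forms the corneal stroma and endothelium, the iris stroma, the drainage angle, the sclera and the pericytes of the ocular vessels. Neural crest cells are first marked by regulators such as Foxd3 and Sox10, and Sox10 is kept in glia and melanoblasts, whereas the mesenchymal derivatives use Twist1, Prrx1, Foxc1, Foxc2, Lmx1b and the PDGF receptors. None of the 9 genes defines RPCs, the retinal progenitor cells that the labels name.

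Pax6, the targeted gene, has 5 probe sets, and 1 of them (1425960_s_at) was called lower. Its log2 intensities were 4.79, 4.88 and 4.45 on the mutant arrays and 6.34, 6.44 and 6.14 on the control arrays, so the groups were far apart. The log2 fold change was -1.60 (SE 0.13, limma, adjusted p = 0.00329). The 4 others were not called, with log2 fold changes between -0.22 and 0.10, and the sources used here do not say which of the 5 lie in the deleted exons. The RPC genes Rax, Six3, Six6, Lhx2 and Sox2 had mean log2 intensities between 7.36 and 9.35 on the mutant arrays and between 7.76 and 9.55 on the control arrays.

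In the RNA of the sorted mutant pools, Foxc1 and Pdgfrb were higher than in that of the control pools, and no member was called lower. The call asked for p under 0.05, a Benjamini-Hochberg adjusted p below 0.10 over all probe sets in limma, and a change of 1.5-fold or more. By it 3 of the 21 member probe sets (14.3%) were higher, 2 of Foxc1 and 1 of Pdgfrb, against 1.67% of all probe sets called higher and 2.65% called in either direction. The members were chosen with earlier results of these data known, and the 2 Foxc1 probe sets share a source sequence. The shares given here and below are therefore descriptive and no independent test. None of the 21 was called lower by limma or by the same comparison with ordinary variances, or was lower at an unadjusted p under 0.05, against 0.984% of all probe sets called lower. At an unadjusted p under 0.05, 11 of the 21 were higher, against 9.94% of all. For 16 of the 21 the log2 fold change was above 0, against 44.3% of all.

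Each gene was also read by its brightest probe set over the 6 arrays. On this basis 2 of 9 genes were called higher, against 2.28% of all genes called higher, 0.918% called lower and 3.20% called in either direction. Of the 9 genes, 8 had a log2 fold change above 0, against 47.1% of all genes. Their median log2 fold change was 0.48, and that of all genes was -0.01. Every mutant array lay above every control array for 6 of the 9 genes (66.7%, against 17.0% of all genes) and for 11 of the 21 probe sets (52.4%, against 13.2% of all). Prrx1, Pdgfra, Foxc2, Lmx1b and the second Pdgfrb probe set were among these 11 without being called. Because bulk RNA was measured, a change in the number of cells of a type and a change in RNA per cell cannot be told apart in any of these values.

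The values are RMA intensities with no detection call, so 80 probe sets of olfactory and vomeronasal receptors, genes not known for a role in this tissue, served as a guide to low levels. Their 95th percentile was a log2 intensity of 3.04, and the median of all probe sets was 3.70. Probes differ in how strongly they respond, so the guide is rough. By it, 8 of the 21 member probe sets were low, and 13 lay below the median of all probe sets. Among the 8 members at or above that median 3 were called higher, against 2.90% of all probe sets at such levels. Among the 13 below it limma called 0 as reported, against 0.435%.

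**Figure D1:**
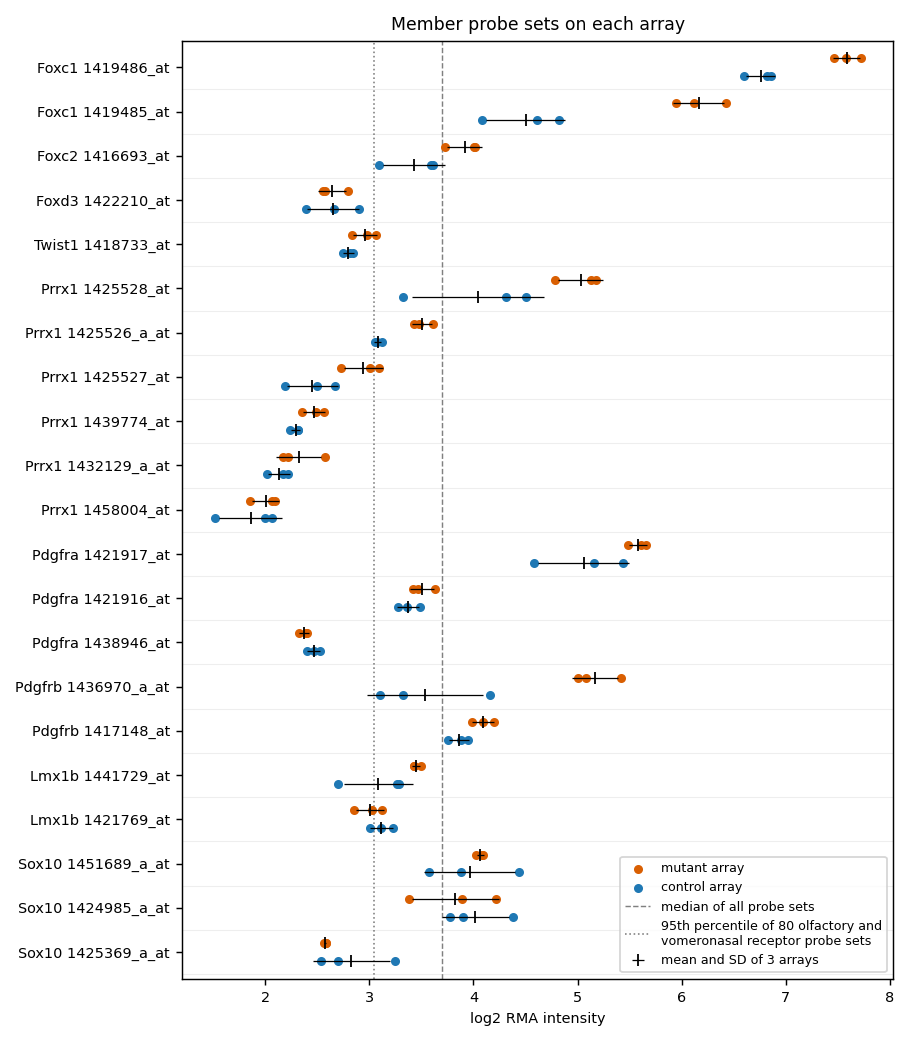
Log2 RMA intensity (horizontal axis) of the 21 member probe sets on each array, with mutant arrays in orange above control arrays in blue, and black bars for the mean and SD of 3 arrays. Both Foxc1 probe sets and Pdgfrb 1436970_a_at show separate groups above the dotted line at 3.04, while the Foxd3 and Twist1 points lie near or below that line.

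Foxc1 encodes a forkhead transcription factor that the periocular mesenchyme needs to form the anterior segment of the eye. Both of its probe sets rose. The brighter one (1419486_at) had log2 intensities of 7.72, 7.58 and 7.46 on the mutant arrays and 6.86, 6.60 and 6.82 on the control arrays. The lowest mutant array thus stood clear of the highest control array. This was a 1.77-fold rise, with a log2 fold change of 0.83 (SE 0.10, limma, adjusted p = 0.00906). The other probe set (1419485_at) had 6.12, 6.43 and 5.94 on the mutant arrays and 4.61, 4.08 and 4.82 on the control arrays. All 3 mutant values again lay above all 3 control values, with the low control value on control replicate 2. This was a 3.16-fold rise, with a log2 fold change of 1.66 (SE 0.20, limma, adjusted p = 0.00939). The annotation gives both probe sets the same source sequence, so they are not independent of each other. The difference in size between them was not tested.

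Foxc2, the close relative of Foxc1 in mesenchyme and lymphatic vessels, was not called. Its only probe set had log2 intensities of 4.02, 4.0 and 3.72 on the mutant arrays and 3.09, 3.59 and 3.62 on the control arrays. Every mutant array was higher than every control array, but the levels lay around the median of all probe sets. The log2 fold change was 0.48 (95% interval 0.11 to 0.85, limma, adjusted p = 0.139).

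Promoter sequences are shown as examples for Foxc1, called by both of its probe sets, and for Prrx1, whose groups were apart without a call. By their brightest probe sets, the groups of Pdgfra and Lmx1b were also apart without a call. The promoters of these genes matched an entry but are not printed. Both are RefSeq sequences of the GRCm38.p6 build, from 250 bases before to 50 bases after the start site, and 6 of the 9 members matched an entry. In Foxc1 (chr13:31806396-31806695, plus strand) the capitals mark the GC box GGGCGG. In Prrx1 (chr1:163313601-163313900, minus strand) they mark the homeodomain core TAATTA.
Foxc1: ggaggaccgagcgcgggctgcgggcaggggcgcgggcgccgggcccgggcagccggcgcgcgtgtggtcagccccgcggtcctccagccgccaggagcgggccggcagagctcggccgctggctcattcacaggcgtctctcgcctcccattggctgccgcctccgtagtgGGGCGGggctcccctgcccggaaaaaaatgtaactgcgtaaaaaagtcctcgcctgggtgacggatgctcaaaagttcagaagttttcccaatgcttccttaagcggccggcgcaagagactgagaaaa
Prrx1: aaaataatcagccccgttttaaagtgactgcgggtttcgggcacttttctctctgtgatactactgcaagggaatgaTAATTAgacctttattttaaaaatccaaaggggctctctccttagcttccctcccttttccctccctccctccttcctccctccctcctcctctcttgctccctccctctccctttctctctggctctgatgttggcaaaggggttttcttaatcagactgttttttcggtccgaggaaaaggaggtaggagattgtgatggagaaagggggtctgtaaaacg
Each motif was searched on both strands. GGGCGG was found in 2 of the 6 member promoters, Foxc1 and Twist1, and in 35.7% of 32851 promoters. TAATTA was found in 1, Prrx1, and in 5.29% of all promoters. The forkhead core GTAAACA and the E-box CATATG were in none of the 6, against 3.65% and 3.91% of all promoters. The Foxc1 sequence had a G+C content of 67.3% and that of Prrx1 47.7%, with a median of 52.7% over all promoters. The motifs do not overlap, and a match describes letters only.

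Pdgfrb and Pdgfra encode the receptor tyrosine kinases of the PDGF pathway. PDGF receptor β marks pericytes and other mural cells as well as mesenchyme, and PDGF receptor α marks mesenchyme broadly. The brighter Pdgfrb probe set (1436970_a_at) had log2 intensities of 5.42, 5.08 and 5.0 on the mutant arrays and 3.11, 3.32 and 4.16 on the control arrays. The groups did not overlap, and control replicate 3 was well above the other 2 control arrays. The rise was 3.11-fold, with a log2 fold change of 1.64 (SE 0.27, limma, adjusted p = 0.0204). The mean control level, 3.53, lay below the median of all probe sets, and with 16 added to each intensity before log2 the log2 fold change was 0.90. With the ordinary variance of each probe set in place of limma's moderated one, this probe set was not called (adjusted p = 0.142).

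The second Pdgfrb probe set (1417148_at) had 4.09, 4.20 and 3.99 on the mutant arrays and 3.76, 3.88 and 3.95 on the control arrays. These groups were also apart, but by little. Its log2 fold change of 0.23 (95% interval 0.04 to 0.42) did not pass (limma, adjusted p = 0.166), so the 2 probe sets of this gene gave different calls.

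For Pdgfra, the brightest probe set (1421917_at) had log2 intensities of 5.66, 5.49 and 5.61 on the mutant arrays and 5.44, 5.16 and 4.58 on the control arrays. The mutant arrays were close together, and control replicate 3 was low. The log2 fold change was 0.53 (95% interval 0.05 to 1.00, limma, adjusted p = 0.196), and it was not called. Without control replicate 1 it was called (0.72, adjusted p = 0.0899), and without control replicate 3 the difference was 0.29. The 2 other Pdgfra probe sets lay below the median of all probe sets, with log2 fold changes of 0.13 and -0.09.

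The ligands that activate these receptors were measured in the same RNA. Of 4 PDGF ligand genes, 2 were called higher and none lower, against 2.28% and 0.918% of all genes called higher and lower. At an unadjusted p under 0.05, 3 were higher and 0 lower, against 12.8% and 11.6% of all genes. Pdgfc, which acts on PDGF receptor α, had log2 intensities of 9.13, 8.95 and 8.95 on the mutant arrays and 8.60, 8.10 and 8.52 on the control arrays. Its log2 fold change was 0.60 (SE 0.14, limma, adjusted p = 0.0544). That of Pdgfb, the ligand that recruits pericytes, was 0.63 (SE 0.15, limma, adjusted p = 0.0575). Without mutant replicate 1, mutant replicate 2, mutant replicate 3 or control replicate 2, neither Pdgfb nor Pdgfc was called. Pdgfa and Pdgfd had log2 fold changes of 0.38 and 0.32 and were not called.

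Prrx1, a homeobox gene of limb and craniofacial mesenchyme, has 6 probe sets, and all 6 had a positive log2 fold change without any being called. The brightest (1425528_at) had log2 intensities of 5.18, 5.13 and 4.78 on the mutant arrays and 4.51, 3.32 and 4.31 on the control arrays. The groups were apart, and control replicate 2 lay far below the other control arrays. The log2 fold change was 0.98 (SE 0.30, 95% interval 0.28 to 1.68), with an adjusted p of 0.115 from limma, just over the threshold. It was called in 4 of 14 alternative settings, among them without control replicate 1 (1.21) and without control replicate 2 (0.62).

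A second Prrx1 probe set (1425526_a_at) had 3.48, 3.61 and 3.43 on the mutant arrays and 3.12, 3.08 and 3.05 on the control arrays. Here the arrays of each group were close together. The log2 fold change of 0.42 had an adjusted p of 0.0201 from limma and was not called because its fold change, 1.34, was under 1.5. The third (1425527_at) was low by the guide, with a log2 fold change of 0.49 (limma, adjusted p = 0.109), and it was called without control replicate 2 (0.60). The 3 others were low as well, with log2 fold changes between 0.14 and 0.19.

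**Figure D2:**
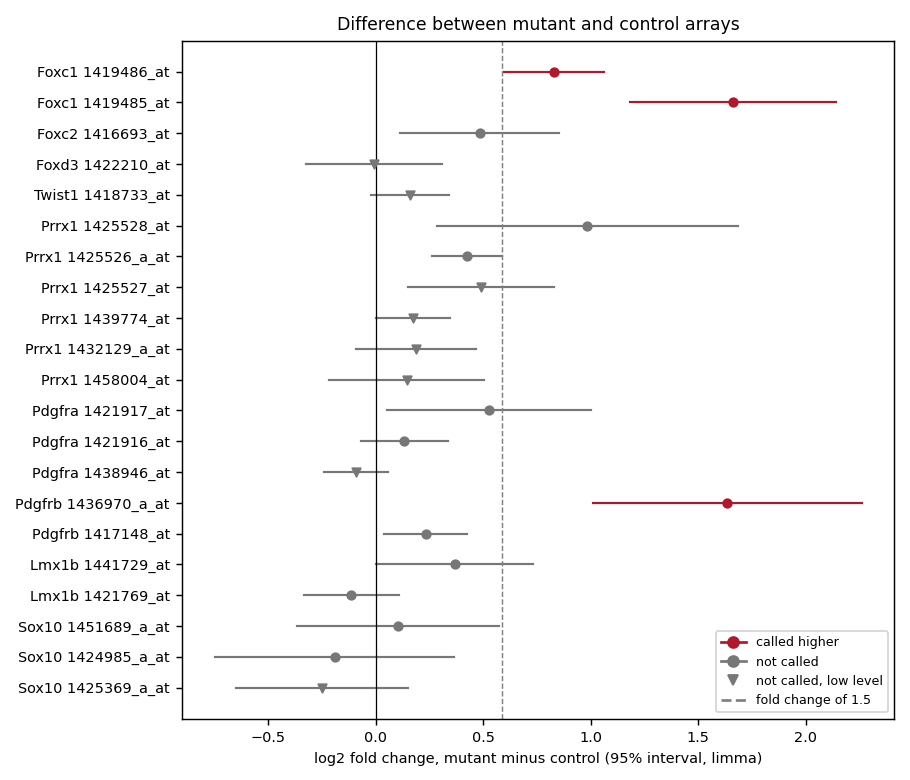
Log2 fold change of each member probe set, mutant minus control, with its 95% interval from limma. Red points are the 3 called probe sets, grey triangles are probe sets below the low-level guide, and the dashed line marks a fold change of 1.5. The brightest Prrx1 probe set reaches 0.98 with an interval from 0.28 to 1.68.

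The remaining 4 members gave no call in either direction. Lmx1b, a LIM homeobox gene of the periocular mesenchyme and the dorsal limb, has 2 probe sets. The brighter (1441729_at) had log2 intensities of 3.49, 3.43 and 3.43 on the mutant arrays and 3.28, 3.27 and 2.70 on the control arrays. The separation was widest against control replicate 3. Its log2 fold change was 0.37 (95% interval 0.00 to 0.73, limma, adjusted p = 0.238), and that of the other was -0.11 (limma, adjusted p = 0.539).

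Twist1, a bHLH factor of cranial mesenchyme, was low by the guide. It had log2 intensities of 3.06, 2.98 and 2.83 on the mutant arrays and 2.81, 2.74 and 2.84 on the control arrays, so the groups overlapped. Twist1 had a log2 fold change of 0.16 (95% interval -0.02 to 0.34, limma, adjusted p = 0.292).

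Foxd3, a forkhead factor of early neural crest cells, was low too. Its log2 intensities were 2.57, 2.79 and 2.56 on the mutant arrays and 2.66, 2.90 and 2.39 on the control arrays. The groups overlapped throughout, with a log2 fold change of -0.01 (95% interval -0.33 to 0.31, limma, adjusted p = 0.98).

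Sox10, an HMG-box factor of the neural crest, peripheral glia and melanoblasts, has 3 probe sets, and the groups overlapped on each. The brightest (1451689_a_at) had log2 intensities of 4.02, 4.09 and 4.08 on the mutant arrays and 4.44, 3.88 and 3.57 on the control arrays. The control arrays were spread on both sides of the mutant arrays, and control replicate 1 was the highest array on all 3 probe sets. The log2 fold changes were 0.10, -0.19 and -0.25 (limma, adjusted p = 0.814, 0.694 and 0.457). The 95% interval of the brightest ran from -0.37 to 0.57, so 3 arrays in each group left room for a true difference anywhere within it, 0 included.

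The members also varied between arrays of 1 group. Among the mutant arrays, mutant replicate 1 had the highest value for 7 of the 9 genes by their brightest probe set. Among the control arrays, the lowest value was on control replicate 3 for 4 genes, on control replicate 2 for 3 and on control replicate 1 for 2. The summed linear intensity of the 9 genes was 399, 364 and 339 on the mutant arrays and 244, 203 and 218 on the control arrays. Without Foxc1 the sums were 187, 172 and 162 on the mutant arrays and 128, 106 and 105 on the control arrays. Over the 6 arrays, the Pearson correlation with Foxc1 was 0.93 for Pdgfrb, 0.90 for Prrx1, 0.69 for Pdgfra and 0.23 for Sox10. These correlations describe 6 points that share the difference between the groups.

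The 5 members whose brightest probe set lay above the median of all probe sets were Foxc1, Prrx1, Pdgfra, Pdgfrb and Sox10. Among 11171 other genes above that median, those whose profile over the 6 arrays was most like their mean standardised profile were Fbxo3 (Pearson r of 0.996), Myct1 (0.995), Sulf1 (0.994), Snap47 (0.993) and Cdk14 (0.990). An r above 0.9 was reached by 566 of the 11171 genes. None of the 5 was called, and their log2 fold changes were between 0.18 and 0.50. The mean profile was itself higher on every mutant array (0.52 to 0.81) than on every control array (-0.99 to -0.04). A high r over these 6 arrays therefore largely follows the difference between the groups.

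Other genes of the same tissues were taken from lists, with 1 probe set per gene and the same background of 2.28% of genes called higher and 0.918% called lower, or 12.8% higher and 11.6% lower at an unadjusted p under 0.05. Of 11 measured neural crest specifiers, 1 was called higher and none was called lower, and at an unadjusted p under 0.05, 4 were higher and 1 was lower. The called gene was Tfap2b, an AP-2 transcription factor, with log2 intensities of 7.20, 7.32 and 6.99 on the mutant arrays and 6.52, 6.63 and 6.59 on the control arrays. Its log2 fold change was 0.59 (SE 0.09, limma, adjusted p = 0.0201), barely over a fold change of 1.5, and leaving out mutant replicate 1, mutant replicate 2 or control replicate 1 removed the call. AP-2 genes are also used by amacrine cells and surface ectoderm. The median of the list was 0.07.

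Of 10 measured head mesenchyme transcription factors, 1 was called higher, and at an unadjusted p under 0.05, 2 were higher and none lower. The called gene was Osr2, a zinc finger gene of craniofacial mesenchyme. It had log2 intensities of 7.26, 7.36 and 7.18 on the mutant arrays and 6.34, 5.96 and 6.11 on the control arrays. Its log2 fold change was 1.13 (SE 0.11, limma, adjusted p = 0.00457), and it was called in every setting that was run on single probe sets. The median of the list was 0.11, and 6 of its 10 genes were low by the guide.

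Of 12 genes of mesenchyme matrix and adhesion, 4 were called higher, and at an unadjusted p under 0.05, 6 were higher and none lower, with a list median of 0.55. The small proteoglycan gene Dcn had the smallest p, with a log2 fold change of 0.80 (SE 0.09, limma, adjusted p = 0.00767). Another was Lum, the keratan sulfate proteoglycan gene of corneal stroma, with 0.60 (limma, adjusted p = 0.0281). The fibrillar collagen genes Col1a2 and Col3a1 had 0.79 each (limma, adjusted p = 0.0129 and 0.0916). Col3a1 lost its call when any 1 of the 6 arrays was left out, and Lum was not called without mutant replicate 1 or control replicate 1. For Col3a1, mutant replicate 1 stood well above the other mutant arrays (log2 intensity of 8.10 against 7.33 and 7.37). The same held for Col1a1 (6.67 against 5.63 and 5.37) and Postn (6.95 against 5.93 and 5.96), which were not called.

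Of 7 measured genes of crest-derived glia and melanoblasts, 1 was called higher, and at an unadjusted p under 0.05, 2 were higher and none lower, with a list median of 0.05. The called gene was the neuregulin receptor gene Erbb3, with a log2 fold change of 0.63 (SE 0.10, limma, adjusted p = 0.0164). It was not called without mutant replicate 2 or control replicate 1. Epithelial cells use Erbb3 as well as glia. The endothelin receptor gene Ednrb had a log2 fold change of 0.56 with the groups apart (limma, adjusted p = 0.0193) and was under the fold change of 1.5.

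Of 9 genes of pericytes and smooth muscle, 1 was called higher and none was called lower, and at an unadjusted p under 0.05, 5 were higher and 1 was lower, with a median of 0.21. Every mutant array lay above every control array for 6 of the 9. The called gene was Abcc9, a subunit of the potassium channel of mural cells, with log2 intensities of 5.07, 5.25 and 4.79 on the mutant arrays and 3.76, 3.53 and 3.82 on the control arrays. Its log2 fold change was 1.33 (SE 0.13, limma, adjusted p = 0.00521). The 8 others were not called, with log2 fold changes between -0.27 (Notch3) and 0.48 (Mcam). Among them Rgs5 and Cspg4, which like Pdgfrb mark pericytes, both had -0.08, while Kcnj8, the partner subunit of Abcc9, had 0.40. Rgs5 and Kcnj8 were low by the guide.

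**Figure D3:**
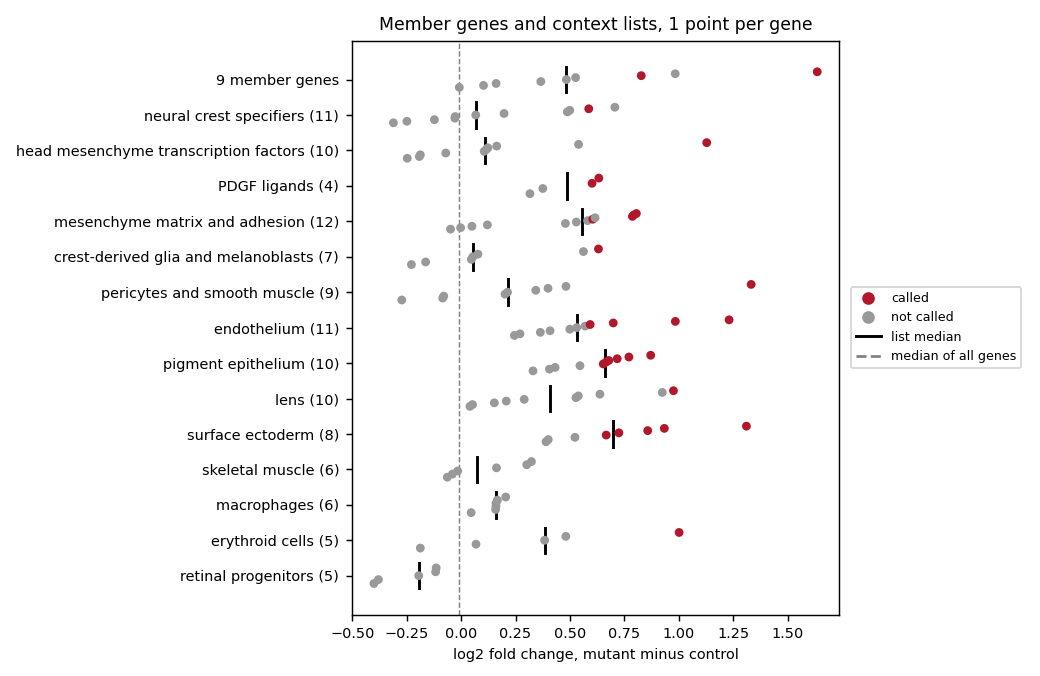
Log2 fold change, mutant minus control, of the 9 member genes and of the measured genes of 14 lists (number of genes in brackets), with 1 point per gene by its brightest probe set. Red points were called, black bars are list medians (0.48 for the members), and the dashed line at -0.01 is the median of all genes.

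Some markers of other cells of the eye were also called higher. Whether the sorted pools held such cells was not tested. Of 11 endothelial genes 4 were called higher (median 0.53), namely Cdh5 (1.23), Tek (0.98), Emcn (0.70) and Tie1 (0.59), and none of these 4 was called when any 1 mutant array was left out. Of 10 pigment epithelium genes 6 were called higher (median 0.66), namely Trpm1 (0.87), Gpr143 (0.77), Mlana (0.72), Tyrp1 (0.68), Tyr (0.67) and Mitf (0.65). The lists share no gene, so pigment genes were counted only here, and these values do not tell pigment epithelium from melanoblasts. Of 8 surface ectoderm genes 5 were called higher (median 0.70), namely Krt14 (1.31), Trp63 (0.93), Cdh1 (0.86), Krt5 (0.72) and Epcam (0.67), and these 5 kept their calls without each array in turn. Values in brackets are log2 fold changes.

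Without control replicate 2, Mitf, Tyr and Tyrp1 were not called. Of 10 lens genes Mip (0.98) was called (median 0.41), and of 5 erythroid genes Hbb-bh1 (1.00) was called (median 0.38). Mip was called only without control replicate 2 or control replicate 3, and Hbb-bh1 only without control replicate 1, among the 6 comparisons with 1 array left out. At an unadjusted p under 0.05, 11 endothelial, 10 pigment epithelium, 7 surface ectoderm, 5 lens and 2 erythroid genes were higher and none of these 5 lists had a lower gene. Of 6 skeletal muscle genes and 6 macrophage genes limma called none, with none at an unadjusted p under 0.05 and none called with ordinary variances. Those with the smallest p were Myog (0.32, limma, adjusted p = 0.399) and Cx3cr1 (0.16, limma, adjusted p = 0.316). Of the 5 retinal progenitor genes limma called none, with none called with ordinary variances and 3 lower at an unadjusted p under 0.05 (median -0.19). The smallest p was that of Six3 (-0.40, limma, adjusted p = 0.0303). With ordinary variances, 7 of the genes in the 14 lists were called in place of 27, all higher.

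The summed linear intensity of the pigment epithelium list lay between 9149 and 9247 on the mutant arrays and between 5822 and 7090 on the control arrays. For the endothelial list it was between 1406 and 1518 on the mutant arrays and between 832 and 1092 on the control arrays, and for the surface ectoderm list between 2682 and 2916 on the mutant arrays and between 1869 and 1949 on the control arrays. The retinal progenitor list was at 1856 to 1987 on the mutant arrays and 2175 to 2200 on the control arrays. The mesenchyme matrix list was at 2241 to 2633 on the mutant arrays, with mutant replicate 1 highest, and 1896 to 1945 on the control arrays. The head mesenchyme factors summed to 222 to 245 on the mutant arrays and 140 to 155 on the control arrays, and the pericyte list to 1952 to 2164 on the mutant arrays and 1775 to 1794 on the control arrays. The lens list was at 2305 to 2699 on the mutant arrays and 1072 to 2049 on the control arrays, with control replicate 3 lowest, and the erythroid list was at 11389 to 12296 on the mutant arrays and 8137 to 11043 on the control arrays. For all of these lists the groups did not overlap. The skeletal muscle list (110 to 117 on mutant and 83.1 to 126 on control arrays) and the macrophage list (708 to 854 on mutant and 627 to 763 on control arrays) overlapped. The part of these cell types in the values of Foxc1, Pdgfrb and the other members was not tested.

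**Figure D4:**
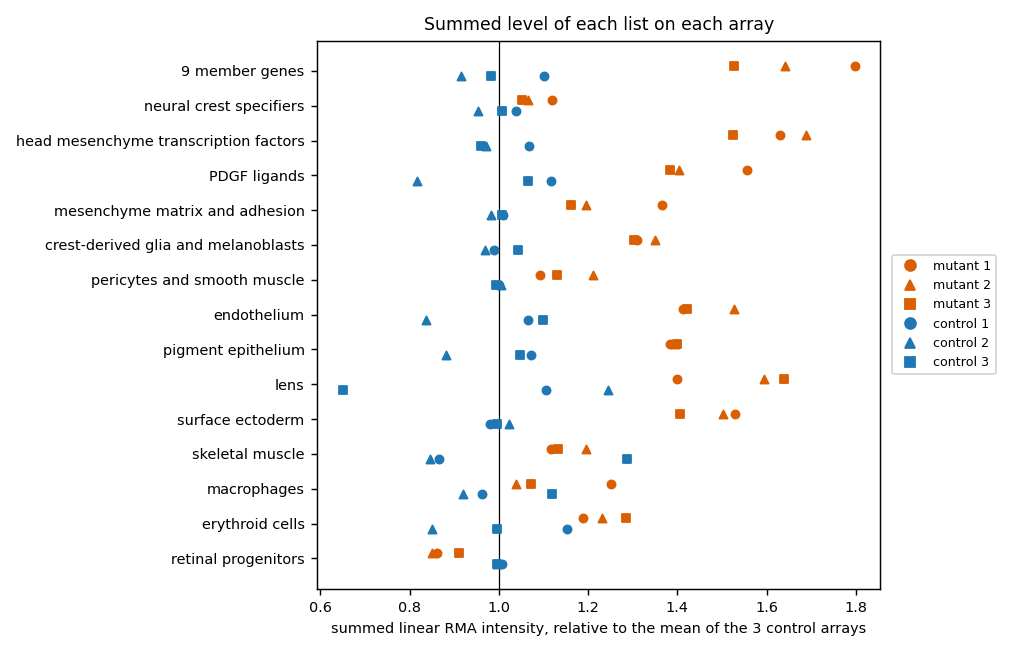
Summed linear RMA intensity of each gene list on each array, divided by the mean of the 3 control arrays, with mutant arrays in orange and control arrays in blue. The 9 member genes, the mesenchyme, endothelial, pigment epithelium and surface ectoderm lists are higher on every mutant array, and the retinal progenitor list is lower on every mutant array.

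Foxc1 and Pdgfrb kept their calls when each array was left out in turn. Foxc1 was called by both probe sets in all 14 alternative settings, with log2 fold changes from 0.74 to 0.89 for the brighter and from 1.18 to 1.82 for the other. Over these fits, by limma or with ordinary variances, the highest adjusted p was 0.0836 for the brighter and 0.0989 for the other. Both were close to the threshold of 0.10. Pdgfrb was called in 13 of 14, at values between 0.90 and 1.95. The brightest Prrx1 probe set stayed positive in all 14, from 0.56 to 1.21.

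**Figure D5:**
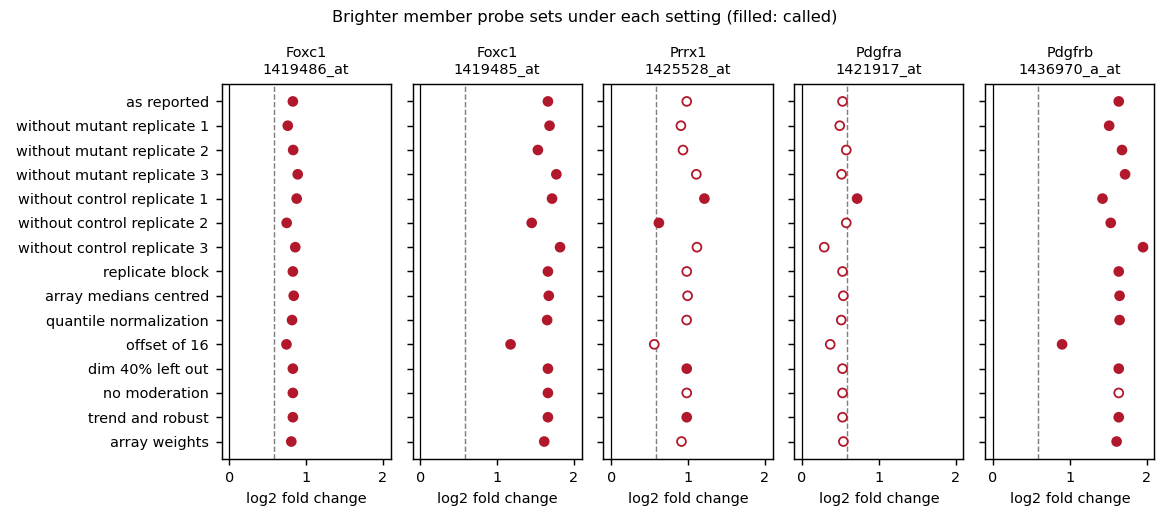
Log2 fold change, mutant minus control, of both Foxc1 probe sets and of the brightest probe set of Prrx1, Pdgfra and Pdgfrb, as reported and under 14 alternative settings. Filled points were called and the dashed line marks a fold change of 1.5; Foxc1 is filled throughout, and Pdgfrb in all but 1 setting.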

How the data were processed

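The authors hybridised RNA of each pool to Affymetrix Mouse Genome arrays and summarised the probes by RMA through RACE and Bioconductor, and in the submitters' notes Affymetrix Expression Console is named as well, without versions. RMA subtracts background and brings the arrays to one distribution, which removes differences in total RNA. Each deposited table holds linear RMA intensities (array medians of 12.9 to 13.1). After log2 and removal of 64 control probe sets, the groups were set against each other with limma 3.58.1 (R 4.3.3) over 45037 probe sets, with the thresholds of the methods. SAM, which the methods also name, was not run. Platform annotation from GEO gave 34945 probe sets 1 gene, 932 several and 9160 none; those with several were left out of gene values. Every member probe set is reported. Of each list, the called genes are named or, with none, the gene with the smallest p, and then the 5 genes most like the members by Pearson r. The members and lists were chosen with earlier results of these data known. The number of arrays limits the precision. The p-values measure the spread between pools. No label ties a pool to an embryo or litter. The fit was tested on simulated data. Replicate numbers did not pair the arrays, so no block was used. Alternatives were leaving out each array, a replicate block, other scaling, an added offset, a filter on dim probe sets, other variance models, array weights, and the median of a gene's probe sets.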

Additional observations from a re-analysis of the deposited data

How the results depend on the processing

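As reported, 3 member probe sets, 2 member genes and 27 genes of the 14 other lists (context genes) were called. Leaving out 1 array at a time gave 3 to 5 member probe sets, 2 to 4 member genes and 17 to 30 context genes. The most members were called without control replicate 1, which added Prrx1 and Pdgfra, and without control replicate 2, which added 2 Prrx1 probe sets; leaving out mutant replicate 1 or mutant replicate 2 gave the fewest context genes, 17. Without the moderation of the variance 1 member gene, Foxc1, and 7 context genes were called. Over all probe sets 1195 were called, with 460 for ordinary variances and 517 with 16 added before log2. Of 286 comparisons of a member probe set with an alternative, 279 kept direction or stayed uncalled, 1 lost its call (Pdgfrb with ordinary variances) and 6 gained one, 4 of them for the brightest Prrx1 probe set. A call that another setting adds or drops has no tested cause. With the replicate number as a block, 3 member probe sets and 25 context genes were called; arrays with the same number did not deviate together (correlations of -0.01, -0.00 and -0.01), so the block is no pairing. One Pax6 probe set was called lower in every setting.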

Other observations

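Foxc1, Foxc2 and the PDGF receptor genes lie in clusters of related genes, so the genes beside the members were also examined, a choice made after the data were seen. Of the 36 nearest protein-coding genes, 2 on each side of each member in the RefSeq order of GRCm38.p6, 32 were measured. None was called by limma or with ordinary variances, against a background of 2.28% of genes called higher and 0.918% called lower. At an unadjusted p under 0.05, 2 were higher and 1 was lower, against 12.8% and 11.6% of all genes. The 32 neighbours had log2 fold changes between -0.29 and 0.27, with a median of 0.04. Beside Foxc1, the forkhead genes Foxf2 and Foxq1 had log2 fold changes of 0.11 (adjusted p = 0.569 from limma) and 0.00 (adjusted p = 0.997). Both had mean log2 intensities below the median of all probe sets, 2.54 and 3.26 on the mutant arrays and 2.43 and 3.26 on the control arrays. Beside Pdgfra, the receptor tyrosine kinase genes Kit and Kdr had log2 fold changes of 0.08 (adjusted p = 0.72) and 0.27 (adjusted p = 0.169). Beside Pdgfrb, Csf1r, the receptor of macrophages, was 0.16 higher on the log2 scale (adjusted p = 0.427).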
